A study of Mus musculus with 12 samples.

Results

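The clock genes described here are *Arntl*, *Clock*, *Per1*, *Per2*, *Cry1*, *Cry2*, *Nr1d1*, *Nr1d2* and *Dbp*, with *Ccrn4l*, the gene of the rhythmic RNA-processing enzyme nocturnin. They were picked by name, as 10 of the 43278 gene symbols measured, with earlier results from these same libraries known. Their levels and differences are therefore a description, and none of them is offered as support for the choice. The libraries were made from poly(A) RNA of peritoneal macrophages (PMφs), the cells that an irritant broth, thioglycolate, draws into the mouse abdominal cavity, and there were 12 of them in 4 groups of 3. All mice were wild-type C57BL/6J, aged 8 to 12 weeks, and both males and females were used. The methods describe pooling of cells and their division among the groups, and the sex-linked genes given with the library checks show a mix of both sexes in only some libraries. The PMφs were collected 4 days after 4% thioglycolate and the adherent cells were used after 18 h of culture. Control PMφs received neither agent. oxLDL PMφs were loaded for 24 h with 100 µg/mL of human medium oxidized LDL, LPS PMφs received 10 ng/mL of ultrapure LPS (a bacterial cell wall component that activates TLR4), and oxLDL+LPS PMφs received the oxLDL and then the LPS. The methods give only an upper limit for the length of LPS treatment, and neither the length used for these libraries nor the hour of the day at collection is given in the sources used here, so the phase of the clock in each culture is not known.

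In the mammalian clock the BMAL1 protein, encoded by *Arntl*, pairs with CLOCK and switches on genes that carry E-boxes in their regulatory DNA. Among those genes are the *Per* and *Cry* genes, whose proteins return to block BMAL1 and CLOCK, and *Nr1d1* and *Nr1d2*, whose REV-ERB proteins repress *Arntl*. *Dbp*, an output regulator of the same class, carries the rhythm to other genes. In macrophages the clock is known to set daily differences in the response to LPS, and REV-ERB proteins are known repressors of cytokine and chemokine genes.

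The unit throughout is the normalized count, which is the number of exonic reads of a gene divided by 1 factor per library. The libraries held 16725738 to 26178431 reads on genes, as implied by the values multiplied by the estimated factors, with a median of 20538910. All 8 macrophage markers reached 10, and their summed level was 231967 to 347950. The eosinophil markers summed to 0 or 1, the B cell markers to 41 to 84 and the mast cell markers to 31 to 109. Of the 5 T cell markers only *Lck* reached 10 in any library, and of the 5 neutrophil markers only *S100a8* did, so the higher sums of these lists with LPS (T cell 82 to 239 against 13 to 26, neutrophil 74 to 249 against 31 to 49) rested on 1 gene each. The mesothelial cell and fibroblast markers, led by collagen genes, summed to 4495 to 5354 in the libraries numbered 3, to 13497 to 16220 in those numbered 2 and to 15800 to 27840 in those numbered 1, across all 4 groups. The part of these other cells in the results was not tested.

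The replicate numbers of the labels paired the libraries in their values, but sex-linked genes set number 1 apart. The female marker *Xist* was 1 in control 1 and 2 in oxLDL 1 but 6331 in LPS 1 and 3812 in oxLDL+LPS 1, and the 4 Y-linked markers summed to 3138 and 3009 against 1004 to 1023. The number 1 cultures with LPS therefore did not have the same mix of male and female cells as those without it. The libraries numbered 2 were female in all groups, with *Xist* at 5933 to 7751, and those numbered 3 were mixed in all groups. For this reason the values of the 10 genes with and without LPS, and the totals over the lists, are also given without number 1. In these bulk samples, fewer cells of a kind and less RNA per cell cannot be told apart.

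Levels between genes were compared per kilobase of exon. In control PMφs *Nr1d2* was the highest of the 10 at a mean of 129.4 normalized counts per kb, followed by *Per1* at 98.03, *Clock* at 73.82 and *Cry1* at 69.86. *Dbp* (37.09), *Arntl* (30.93) and *Ccrn4l* (30.59) lay in the middle, and *Cry2* (16.09), *Per2* (15.65) and *Nr1d1* (13.65) were the lowest. The control libraries of *Clock* (64.25 to 81.52) and *Cry1* (55.09 to 88.32) overlapped, as did those of *Dbp*, *Arntl* and *Ccrn4l* and those of the 3 lowest genes. REV-ERBα (*Nr1d1*) and REV-ERBβ (*Nr1d2*) thus differed widely in transcript level, and the number of *Nr1d2* reads per *Nr1d1* read, which is not scaled by length, was 12.68 to 23.88 in control PMφs.

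Promoter sequences of 9 of the 10 genes were matched in RefSeq on GRCm38.p6, each from 250 bases before to 50 bases after a transcription start, with 13 windows in all. *Per2* was the gene without a window. The windows shown are those of *Dbp* and *Ccrn4l*, the genes with the widest differences with LPS, and of the called genes whose windows held a listed motif, printed 5′ to 3′ on the strand of the gene and up to the base before the start, with the motif matches in capitals. The motifs are the E-box CACGTG, its variant CACGTT, which on the opposite strand reads as AACGTG, the D-boxes TTATGTAA and TTACGTAA bound by DBP-family factors, the REV-ERB and ROR core TAGGTCA, the cAMP response element TGACGTCA and its 6-base part TGACGT, all read on both strands.
*Dbp*, chr7:45704997-45705246, plus strand: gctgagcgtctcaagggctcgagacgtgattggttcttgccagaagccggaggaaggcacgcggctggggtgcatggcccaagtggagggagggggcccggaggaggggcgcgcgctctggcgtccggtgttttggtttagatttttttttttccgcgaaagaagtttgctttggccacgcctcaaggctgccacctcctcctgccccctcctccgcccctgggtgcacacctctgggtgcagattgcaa
*Ccrn4l*, chr3:51224197-51224446, plus strand: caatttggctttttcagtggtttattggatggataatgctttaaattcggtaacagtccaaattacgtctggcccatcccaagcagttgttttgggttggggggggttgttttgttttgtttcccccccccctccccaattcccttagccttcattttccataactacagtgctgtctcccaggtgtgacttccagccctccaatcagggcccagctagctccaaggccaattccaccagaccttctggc
*Per1*, first start, chr11:69098699-69098948, plus strand: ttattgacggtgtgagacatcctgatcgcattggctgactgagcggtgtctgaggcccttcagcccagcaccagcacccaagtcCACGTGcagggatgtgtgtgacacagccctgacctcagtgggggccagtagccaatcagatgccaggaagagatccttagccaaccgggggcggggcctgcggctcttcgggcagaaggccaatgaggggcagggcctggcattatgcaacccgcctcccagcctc
*Per1*, other start, chr11:69099902-69100151, plus strand: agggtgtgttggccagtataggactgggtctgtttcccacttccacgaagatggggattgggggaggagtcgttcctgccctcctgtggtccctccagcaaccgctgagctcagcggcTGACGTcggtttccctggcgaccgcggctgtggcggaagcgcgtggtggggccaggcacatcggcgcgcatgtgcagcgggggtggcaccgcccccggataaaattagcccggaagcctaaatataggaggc
*Cry1*, chr10:85185055-85185304, minus strand: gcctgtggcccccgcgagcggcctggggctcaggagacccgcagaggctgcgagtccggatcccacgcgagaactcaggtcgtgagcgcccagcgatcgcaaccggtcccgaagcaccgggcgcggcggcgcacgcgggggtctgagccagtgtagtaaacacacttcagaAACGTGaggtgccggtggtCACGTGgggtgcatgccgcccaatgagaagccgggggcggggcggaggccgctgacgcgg
*Arntl*, site after the start, chr7:113207530-113207558, plus strand: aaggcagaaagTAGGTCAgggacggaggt

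*Cry1* held an E-box whose first base was 60 bases before the start and the variant 79 bases before it. *Per1* held an E-box 166 bases before the first of its RefSeq starts shown and TGACGT 132 bases before the other. These starts lie inside *Per1* as placed by the GENCODE annotation, in which the gene begins at base 69095217. *Arntl* held TAGGTCA 31 bases after its start, in the stretch that is transcribed. The variant CACGTT was also found on the opposite strand in *Cry2*, 166 bases before the start, and in *Nr1d1*, 28 bases before it. No listed motif fell in the *Dbp* or *Ccrn4l* windows, which says only that these letters are not in these bases. Of 32817 promoter windows, 7.15% held CACGTG, 4.69% CACGTT, 2.61% TAGGTCA, 7.51% TGACGT, 1.79% TGACGTCA, 0.935% TTATGTAA and 0.119% TTACGTAA. A match is a run of letters and was not tested for binding here.

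With LPS, the output gene *Dbp* was far lower in PMφs, and *Per1*, *Nr1d2* and *Arntl* were lower. *Ccrn4l* was higher, as was *Cry1*, and for *Clock*, *Per2*, *Cry2* and *Nr1d1* no difference was called. Of the 10 genes, 6 had an adjusted p under 0.1 for LPS versus control (limma with Benjamini-Hochberg adjustment over all 13023 genes tested), 2 higher and 4 lower. Across all genes 61.7% were called, 31.4% higher and 30.3% lower, so the share of 6 of 10 was near that background. The same held for libraries that did not overlap between the groups, 5 of the 10 genes against 63.2% of all genes (1 higher against 32.1%, 4 lower against 31.1%). The median log2 fold change was −0.31 over the 10 genes and −0.001 over all genes.

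**Figure D1:**
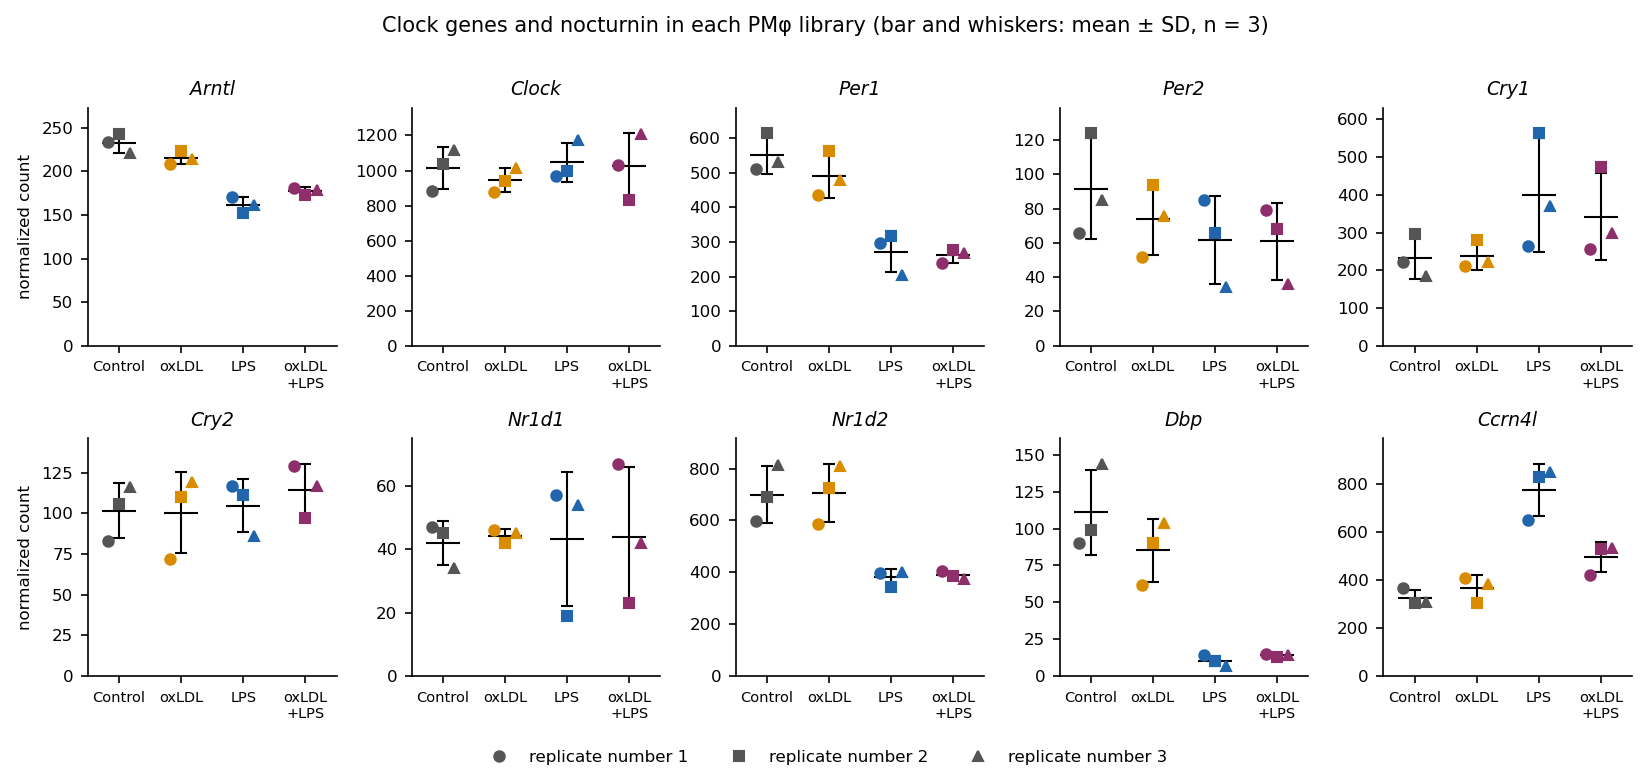
Normalized count (y axis, linear from 0) of each gene in the 12 PMφ libraries by group (x axis), with circles, squares and triangles for replicate numbers 1, 2 and 3 and a bar with whiskers for the mean ± SD (n = 3). *Dbp* fell from 90 to 144 in control libraries to 7 to 14 with LPS, and *Ccrn4l* was 651 to 848 with LPS but 422 to 532 with oxLDL and LPS.

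*Arntl*, the gene of the activator BMAL1, occupies bases 113207465 to 113314126 of chromosome 7 (GRCm38, as are all positions here). It was at normalized counts of 234, 243 and 221 in control 1, 2 and 3, 209, 224 and 214 with oxLDL, 171, 152 and 161 with LPS, and 181, 173 and 179 with oxLDL and LPS. Both groups with LPS lay below both groups without it, with no overlap. The log2 fold change with LPS was −0.53 (SE 0.12, adjusted p = 0.007945) without oxLDL and −0.28 (SE 0.11, adjusted p = 0.08185) with it, and without number 1 they were −0.56 (adjusted p = 0.0361) and −0.31 (adjusted p = 0.1745), so the second call was lost. In all 3 numbers the oxLDL+LPS library was above the LPS library, by 0.08, 0.19 and 0.15, a difference of 0.14 (SE 0.13, adjusted p = 0.8347) that was not called.

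*Clock*, whose protein is the histone-acetylating partner of BMAL1, lies on chromosome 5 from 76209868 to 76304792. It was 882, 1039 and 1119 in control libraries and 968, 996 and 1175 with LPS, against 878, 941 and 1017 with oxLDL and 1033, 830 and 1207 with both agents. All 4 groups overlapped, and the log2 fold change with LPS was 0.05 (SE 0.12, adjusted p = 0.7717). The partners of the activating pair thus differed in their values, *Arntl* being lower with LPS and *Clock* showing no called difference, although the difference between the genes was not tested.

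The *Per* genes encode the repressor proteins that accumulate and shut off the loop each day, and *Per1* is also a fast-response gene to cAMP and glucocorticoids. *Per1*, on chromosome 11 from 69095217 to 69109960, was 511, 614 and 531 in control PMφs and 435, 562 and 479 with oxLDL. With LPS it was 296, 316 and 205, and with both agents 238, 277 and 268. No library with LPS reached any library without it, and the log2 fold change was −1.04 (SE 0.18, adjusted p = 0.001799) without and −0.91 (SE 0.13, adjusted p = 0.001086) with oxLDL. Of all genes tested, 13.5% had a fold change with LPS at least as low.

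*Per2*, on chromosome 1 from 91415982 to 91459324, was scattered. It was 66, 124 and 85 in control, 52, 94 and 76 in oxLDL, 85, 66 and 34 in LPS and 79, 68 and 36 in oxLDL+LPS libraries. With LPS its log2 difference was 0.36 in number 1, −0.90 in number 2 and −1.30 in number 3, so the overall value of −0.61 (SE 0.37, adjusted p = 0.2043) was not called, whereas without number 1 it was −1.10 (SE 0.40, adjusted p = 0.07603). Number 1 is the pair whose sex-linked genes did not match, and its part in the *Per2* values was not tested.

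*Cry1* and *Cry2* encode the cryptochromes, which complete the repressor complex. *Cry1*, on chromosome 10 from 85131700 to 85185064, was 221, 295 and 184 in control, 211, 279 and 223 in oxLDL, 264, 563 and 370 in LPS and 256, 473 and 298 in oxLDL+LPS libraries. It was higher with LPS by 0.73 (SE 0.29, adjusted p = 0.06422), yet LPS 1 lay below control 2, and leaving out number 3 lost the call (0.59, adjusted p = 0.254). With oxLDL the difference of 0.48 was not called (SE 0.24, adjusted p = 0.1367) unless the replicate number was a block (adjusted p = 0.01771). The number 2 libraries held the highest *Cry1* value of every group. *Cry2*, on chromosome 2 from 92403646 to 92434043, was 83, 106 and 116 in control and 117, 111 and 86 in LPS libraries, a log2 fold change of 0.04 (SE 0.20, adjusted p = 0.8748), and was 72 to 119 with oxLDL and 97 to 129 with both. In counts, *Cry1* stood at 1.586 to 2.783 reads per read of *Cry2* in control and 2.256 to 5.072 in LPS PMφs.

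Of the REV-ERB genes of the stabilizing loop only *Nr1d2* was called with LPS, and the difference between them was not tested. *Nr1d2* (chromosome 14, 18204054 to 18239127) was 596, 692 and 812 in control, 588, 725 and 809 in oxLDL, 396, 343 and 403 in LPS and 404, 385 and 374 in oxLDL+LPS PMφs. The groups with LPS did not overlap those without, and the fold changes of −0.87 (SE 0.14, adjusted p = 0.001199) and −0.85 (SE 0.13, adjusted p = 0.001491) were close to each other. *Nr1d1* (chromosome 11, 98767932 to 98775333) was 47, 45 and 34 in control and 46, 42 and 45 in oxLDL libraries. With LPS it was 57, 19 and 54, and with both agents 67, 23 and 42, so that number 2 was low in both LPS groups while numbers 1 and 3 were within or above the control range. Its log2 difference with LPS was 0.27, −1.20 and 0.65 in numbers 1, 2 and 3, a mean of −0.09 (SE 0.42, adjusted p = 0.8726). *Nr1d1* shares 263 exonic bases with *Thra* on the other strand, 8.5% of its length, and whether counting used the strand is not given in the sources used here.

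*Dbp*, whose PAR bZIP protein relays the clock to metabolic genes, had the widest difference with LPS among the 10. It lies on chromosome 7 from 45705088 to 45710203 and was 90, 99 and 144 in control, 62, 90 and 104 in oxLDL, 14, 10 and 7 in LPS and 15, 13 and 14 in oxLDL+LPS PMφs. The mean of 111 ± 28.93 (SD, n = 3) compared with 10.33 ± 3.512 (SD, n = 3), a log2 fold change of −3.32 (SE 0.32, adjusted p = 8.547e-05), and only 0.806% of all genes tested had a value as low or lower. With oxLDL the fold change was −2.50 (SE 0.27, adjusted p = 0.0002475), and without number 1 the fold changes were −3.68 and −2.75. *Dbp* shares 539 exonic bases (18.0%) with *Sphk2* on the other strand. The library kit was directional, but whether counting used the strand is not given, so how reads of the shared bases were counted is not known. The number of *Arntl* reads per *Dbp* read was 1.535 to 2.6 in control PMφs and 12.21 to 23 with LPS.

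*Ccrn4l*, annotated as *Noct* on chromosome 3 from 51224447 to 51251644, encodes nocturnin, a relative of the CCR4 deadenylases that was named for its nightly peak and is now known to remove a phosphate from NADP(H). It was 365, 305 and 308 in control PMφs and 651, 828 and 848 with LPS, a 2.37-fold difference (log2 1.24, SE 0.14, adjusted p = 0.0001854) with no overlap. Without number 1 the log2 fold change was 1.45 (SE 0.11, adjusted p = 0.0006598). In oxLDL-loaded PMφs it was 409, 305 and 382 without LPS and 422, 528 and 532 with it, a difference of 0.44 (SE 0.15, adjusted p = 0.04817) that came mostly from numbers 2 and 3 (0.79 and 0.48, against 0.05 in number 1). This call was lost without number 2 (0.26, adjusted p = 0.242) and without number 3 (0.42, adjusted p = 0.1938).

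**Figure D2:**
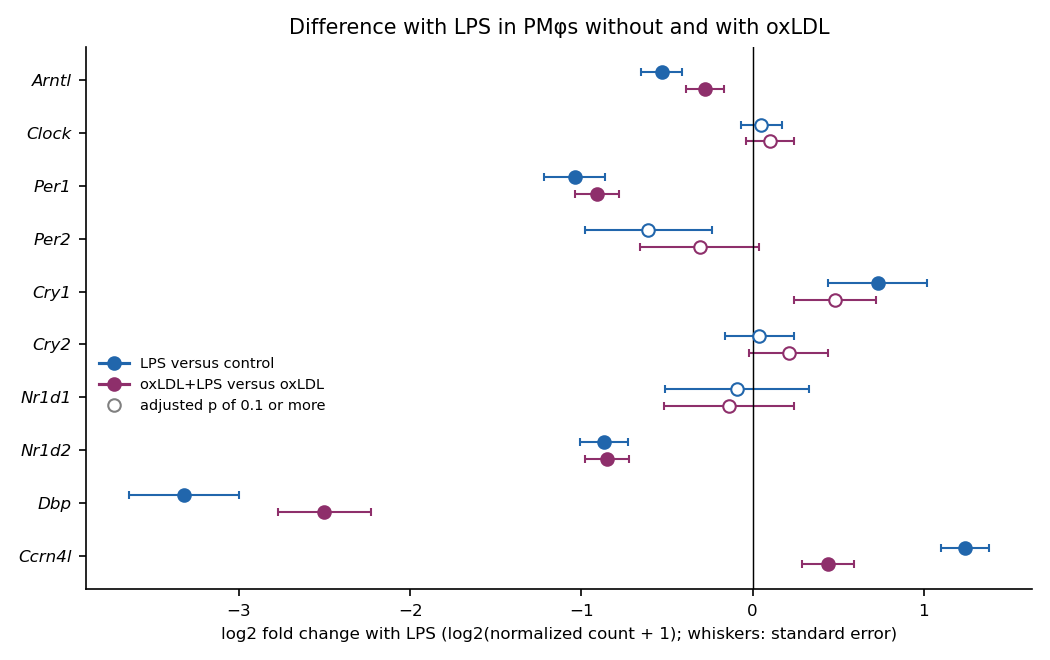
Log2 fold change with LPS (x axis, on log2 of the normalized count plus 1) of each gene in PMφs without oxLDL (blue) and with oxLDL (purple), where whiskers are the standard error and open points had an adjusted p of 0.1 or more. *Dbp* (−3.32 and −2.50), *Per1* and *Nr1d2* lie to the left in both and *Ccrn4l* to the right (1.24 and 0.44). With every library set to the same total *Clock* and *Cry2* change sign for LPS versus control, to −0.44 each, and in oxLDL-loaded PMφs to −0.29 and −0.18.

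In oxLDL-loaded PMφs 5 of the 10 genes were called with LPS, 1 higher and 4 lower, against 54.5% of 12900 genes (28.2% higher, 26.3% lower). The same 5 genes had libraries that did not overlap, against 57.6% of all genes (29.6% higher, 28.0% lower). With the replicate number as a block 6 were called, the added gene being *Cry1*, against 63.4% (32.0% higher, 31.4% lower). Without number 1 the counts were 7 of 10 genes for LPS versus control, where *Per2* was added, against 54.2% of 12092 genes, and 4 of 10 in oxLDL-loaded PMφs, where *Arntl* was lost, against 44.7% of 12113. The log2 fold changes without number 1 for LPS versus control were −1.16 for *Per1*, −1.01 for *Nr1d2*, 0.97 for *Cry1* (adjusted p = 0.05489), 0.00 for *Clock*, −0.18 for *Cry2* and −0.27 for *Nr1d1*. In oxLDL-loaded PMφs they were 0.63 for *Ccrn4l* (adjusted p = 0.03333), −0.93 for *Per1*, −1.01 for *Nr1d2*, −0.76 for *Per2*, 0.59 for *Cry1*, 0.03 for *Clock*, −0.10 for *Cry2* and −0.47 for *Nr1d1*, so *Cry2* changed sign without number 1 in both comparisons and was called in neither. The deposited scaling leaves the libraries with LPS a larger total than the others. With every library rescaled to the same total, the median log2 fold change with LPS over all genes shifted to −0.48 without oxLDL and to −0.41 with it, and the share of calls that were higher went from 50.9% to 23.1% and from 51.7% to 23.4%. Under that scaling *Clock* (−0.44, adjusted p = 0.00634) and *Per2* (−1.09, adjusted p = 0.05023) were also called lower, *Cry1* (0.25, adjusted p = 0.4662) was not called, and *Ccrn4l* was 0.76 (adjusted p = 0.001118) for LPS versus control and 0.05 (adjusted p = 0.7881) in oxLDL-loaded PMφs. Measured from the median of all genes the values for LPS versus control were 1.24 for *Ccrn4l* and −3.29 for *Dbp*. Rescaling shifts all genes of a library alike, so this return follows from the arithmetic and is no check on the scaling.

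The study loaded PMφs with oxLDL to see how lipid changes the response to LPS. Without LPS, oxLDL made no called difference in any of the 10 genes, nor in any of the 12751 genes tested with limma (0%, the smallest adjusted p being 0.2503), although 381 genes had an unadjusted p under 0.05. The study, with DESeq2 and the same threshold of 0.1, did report significant induction of certain metabolic genes such as *Cd36* by oxLDL. In limma with the replicate block 4.71% of genes were called and again none of the 10. The largest values among the 10 were −0.38 (SE 0.25) for *Dbp*, with differences of −0.53, −0.14 and −0.47 in numbers 1, 2 and 3, and −0.30 (SE 0.30) for *Per2*. *Arntl*, *Clock*, *Per1*, *Per2* and *Dbp* had a lower value in the oxLDL than in the control library of each number. For *Clock* in number 1 the values were 878 and 882. The share of all genes lower in every number was not computed, so this cannot be judged as a trait of the 10. All 10 genes overlapped between the groups, against 7.70% of all genes that did not.

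Between oxLDL+LPS and LPS PMφs, *Ccrn4l* had the widest difference of the 10 genes. It was lower in oxLDL+LPS than in LPS PMφs, with log2 differences of −0.62, −0.65 and −0.67 in numbers 1, 2 and 3, and every oxLDL+LPS library (422, 528 and 532) lay below every LPS library (651, 828 and 848). The log2 fold change of −0.65 had an adjusted p of 0.6981 from limma without a block (SE 0.15, unadjusted p = 0.003349), since none of the 12786 genes was called (0%) and 890 had an unadjusted p under 0.05. With the replicate block, where 13.2% of genes were called (4.42% higher, 8.74% lower), *Ccrn4l* had an SE of 0.08 and an adjusted p of 0.005166, making it the only called gene of the 10. A count of 1 in 10 was not above the share over all genes. Leaving out number 1, 2 or 3 in the blocked fit kept the fold change at −0.66, −0.65 and −0.64 (SE 0.10, 0.11 and 0.09). The adjusted p in these smaller fits was 0.0707, 1.548e-07 and 0.3477, which did not follow the SE. These p-values therefore cannot show whether the blocked call held. Of all genes, 3.89% had a fold change as low or lower. The other 9 genes ranged from −0.20 for *Cry1* to 0.45 for *Dbp* (SE 0.39), and besides *Ccrn4l* only *Arntl*, in the other direction, had libraries that did not overlap, against 12.6% of all genes (6.18% higher, 6.39% lower).

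**Figure D3:**
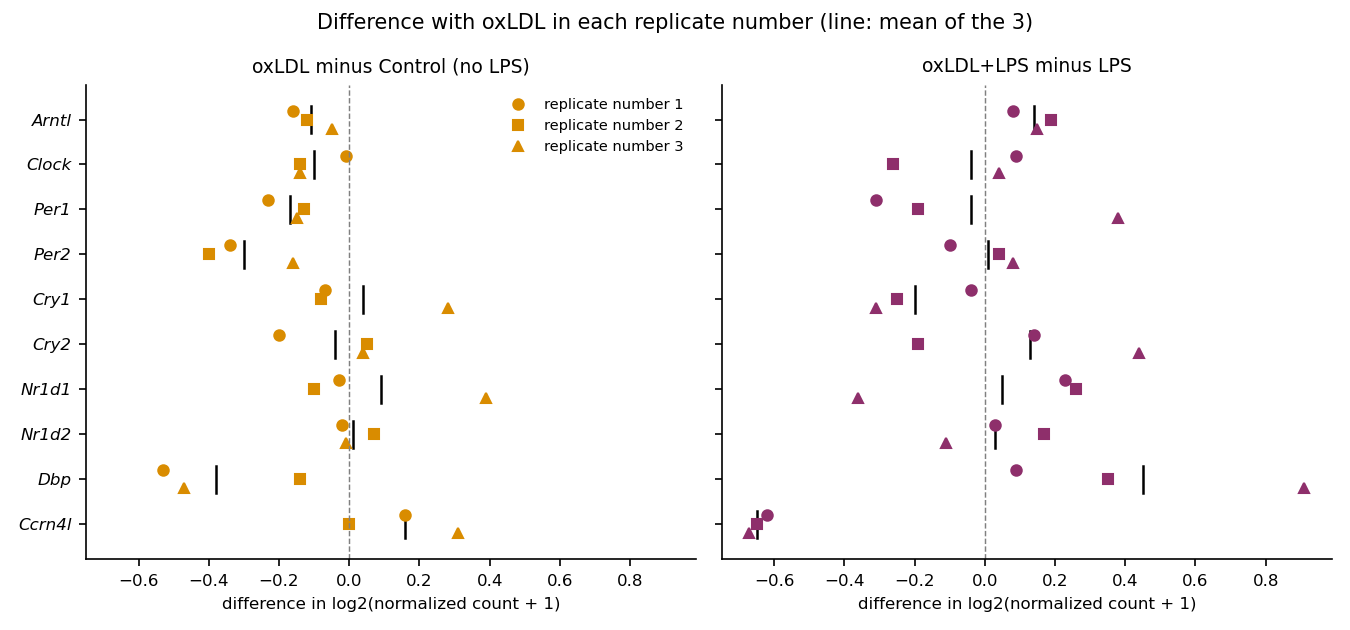
Difference in log2 of the normalized count plus 1 (x axis) between the oxLDL and control library (left) and between the oxLDL+LPS and LPS library (right) of each replicate number, with circles, squares and triangles for numbers 1, 2 and 3 and a line at their mean. *Ccrn4l* is the gene whose 3 values lie together away from 0 on the right, at −0.62, −0.65 and −0.67, while on the left they are 0.16, 0.00 and 0.31.

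The difference of these differences, oxLDL in the presence of LPS minus oxLDL in its absence, was −0.81 for *Ccrn4l* (SE 0.21, adjusted p = 0.9999 over 13482 genes, unadjusted p = 0.002672), and −0.79, −0.65 and −0.98 in numbers 1, 2 and 3. No gene was called in this fit (0%), and 418 had an unadjusted p under 0.05. With the replicate number as a block across all 4 groups again none of the 13482 genes was called. With the replicate number nested in LPS state as a block, which compares each library only with its partner of the same LPS state, 1.09% of genes were called (0.408% higher, 0.682% lower) and *Ccrn4l* was the 1 called among the 10 (SE 0.11, adjusted p = 0.03764). That call was lost in 5 of the 6 fits that left out the libraries of 1 number in 1 LPS state, in which its adjusted p was 0.1134 to 0.1798. Without number 2 with LPS the adjusted p was 0.002671. The SE there was 0.12, among those of the other fits (0.11 to 0.13), so this p does not show that the call held. Among the other 9 genes the values ran from −0.25 for *Cry1* (SE 0.41) to 0.83 for *Dbp* (SE 0.41), and *Dbp* was higher by 0.62, 0.48 and 1.37 in the 3 numbers without being called (adjusted p = 0.2607 with the nested block).

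The order of the 4 groups by level differed between the genes. For *Ccrn4l* it was LPS, oxLDL+LPS, oxLDL and control, with the first 3 apart from each other and the last pair overlapping. For *Arntl* it was control, oxLDL, oxLDL+LPS and LPS, and only control and oxLDL overlapped. *Per1*, *Nr1d2* and *Dbp* each split into a pair of groups without LPS and a pair with it, the members of each pair overlapping. For *Clock*, *Per2*, *Cry1*, *Cry2* and *Nr1d1* all neighbours in the order overlapped, with gaps in their means within the SDs.

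The genes whose levels followed *Ccrn4l* most closely over the 12 libraries, among 13482 genes, were *Itgav* (Pearson r = 0.968), *Marcks* (0.953), *Baz1a* (0.953), *Rsrc2* (0.951) and *Lpcat3* (0.950). *Itgav*, the αV integrin gene, was at a mean of 2986 in control, 2962 in oxLDL, 6250 in LPS and 4355 in oxLDL+LPS PMφs. The closest to *Dbp* were *Emc8* (0.996), *Dagla* (0.996), *Mast3* (0.993), *Pkib* (0.991) and *Ddi2* (0.989), of which *Dagla* was at a mean of 724.7 in control and 184.7 in LPS PMφs. For *Nr1d1*, where no difference was called, they were *Pycard* (0.937), *Reck* (0.901), *Rps26-ps1* (0.877), *Btbd3* (0.868) and *Zfp827* (0.867). These correlations share the 12 libraries and their group differences and are a description.

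In all, 7 lists of genes around the clock and around nocturnin held 93 genes, none of them among the 10. With LPS, 63 of the 89 tested were called, 35 higher and 28 lower, against 61.7% of all genes. These include *Il6*, *Zbtb16* and *Ppargc1a*, which passed the filter on low values through 1 group alone. Without number 1 the count was 53, where 54.2% of all genes were called. When every library had the same total, 18 were higher and 53 lower, where 72.5% of all genes were called and 23.1% of those calls were higher. Among the other core clock factors 9 of 12 were called, 3 higher and 6 lower, with a median log2 fold change of −0.62 against −0.00 over all genes. *Npas2*, a paralogue of *Clock*, went from 152, 154 and 190 in control to 18, 35 and 27 in LPS libraries (log2 −2.63, SE 0.27, adjusted p = 0.000111). *Tef*, a relative of *Dbp*, went from 802, 1015 and 1008 to 195, 230 and 213 (−2.14), and *Cipc*, a CLOCK-interacting repressor, from 3312, 3555 and 3487 to 846, 1049 and 989 (−1.85). *Timeless*, which acts mainly at replication forks in mammals, rose from 80, 79 and 56 to 1318, 894 and 1523 (4.08).

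**Figure D4:**
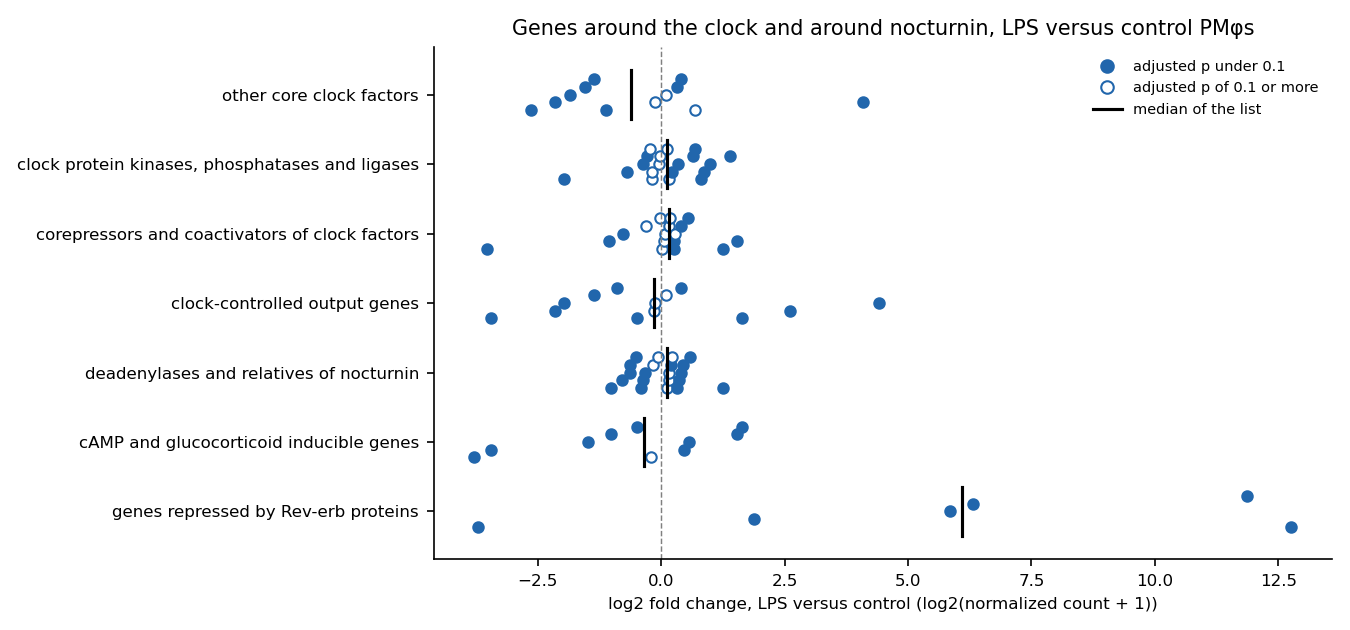
Log2 fold change of LPS versus control (x axis, on log2 of the normalized count plus 1) of every tested gene of the 7 lists (rows), filled where the adjusted p was under 0.1, with a black line at the median of the list. The other core clock factors have a median of −0.62. The genes repressed by REV-ERB proteins have one of 6.08, which includes *Il6*, tested through its LPS libraries alone. With every library set to the same total the calls over all lists turn from 35 higher and 28 lower to 18 and 53. Over all genes the share of calls that were higher then goes from 50.9% to 23.1%.

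Of the clock-controlled output genes 10 of 13 were called, 4 higher and 6 lower, with a median of −0.14, against 61.7% of all genes (31.4% higher, 30.3% lower). *Cdkn1a*, the cell cycle inhibitor gene, rose by 4.42 on the log2 scale and *Nampt*, which makes the NAD precursor, by 2.62, while *Tsc22d3*, the glucocorticoid-induced leucine zipper gene, went from 2378, 2699 and 2303 to 251, 256 and 179 (−3.44). The kinases, phosphatases and ligases that act on clock proteins were called in 12 of 19 cases, 8 higher and 4 lower, with a median of 0.12. *Csnk1a1* (0.86) and the ligase gene *Fbxw11* (1.00) were among those that rose, as was *Prkaa2* (1.40), and the deubiquitinase gene *Usp2* fell by 1.97. Of 17 corepressors and coactivators 9 were called, 6 higher and 3 lower (median 0.16), with *Hdac1* (1.54) and *Nono* (1.26) higher and *Ppargc1a* (−3.53) lower.

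Of the 21 deadenylases and relatives of nocturnin 15 were called with LPS, 7 higher and 8 lower, with a median of 0.11, against 61.7% of all genes. *Btg1*, which binds deadenylases, rose by 1.25 (SE 0.26, adjusted p = 0.00481), and *Pan2* (−1.02), *Tob1* (−0.80) and *Cnot6l* (−0.64) were lower. *Ccrn4l* was called higher too. The 7 of 21 called higher were near the share over all genes (31.4% higher, 30.3% lower). Of 10 genes inducible by cAMP or glucocorticoids 9 were called, 4 higher and 5 lower, with a median of −0.35. *Fkbp5* (1.63) and *Nr4a1* (1.53) were higher and *Tsc22d3* lower, and *Zbtb16* was at 20, 25 and 18 in control and 1, 0 and 1 in LPS libraries. Of the 6 genes listed as repressed by REV-ERB proteins, which are inflammatory genes, 5 were called higher and 1 lower, with a median of 6.08. *Il6* entered the test through its LPS libraries alone, as *Zbtb16* and *Ppargc1a* did through their control libraries, so their calls were set by the filter on low values and support nothing. *Il1b* was 20, 11 and 7 in control and 51068, 85645 and 152939 in LPS libraries, *Il6* was 2, 1 and 0 and then 2135, 9776 and 14906, and *Ccl2* and *Nlrp3* rose by 6.31 and 5.86. The fractalkine receptor gene *Cx3cr1*, chosen after its values were seen, was the exception at 91, 98 and 54 against 15, 6 and 1.

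In oxLDL-loaded PMφs 58 of the 89 genes were called with LPS, 28 higher and 30 lower, against 54.5% of all genes. Of these, *Il6*, *Cx3cr1*, *Ppargc1a* and *Zbtb16* passed the filter on low values through 1 group alone, so their calls support nothing. Without number 1 the count was 42, where 44.7% of all genes were called. When every library had the same total, 16 were higher and 56 lower, where 67.5% of all genes were called and 23.4% of those calls were higher. Between oxLDL+LPS and LPS PMφs none of 86 was called without a block, and with it 20 were, 3 higher and 17 lower, against 13.2% of all genes (4.42% higher, 8.74% lower). Of the REV-ERB list *Il6* (−2.18), *Il1b* (−2.16), *Ccl2* (−1.58) and *Nlrp3* (−0.33) were lower under the block. Of the core clock factors *Nfil3*, the repressor that competes with DBP-family proteins for D-boxes, was 266, 439 and 230 with both agents against 407, 528 and 425 with LPS (−0.59), *Bhlhe40* was lower (−0.32) and *Bhlhe41* higher (0.36). Of the deadenylase list *Btg2* (−0.30), *Btg1* (−0.29), *Cnot6* (−0.25) and *Cnot4* (−0.24) were lower, each by less than *Ccrn4l*. The blocked count was 1 without number 1, 28 without number 2 and 0 without number 3. The share of all genes called in these smaller fits is not given here. Their adjusted p did not follow the SE for *Ccrn4l*, so these counts cannot show whether the blocked calls held. Between oxLDL and control PMφs none of 88 was called without the block, and 9 were with it (2 to 15 with a number left out) against 4.71% of all genes, among them *Fos* (0.66) and *Ccl2* (0.38) higher and *Cx3cr1* (−1.54), *Rora* (−0.21) and *Tsc22d3* (−0.31) lower. The share of all genes is not given for the range with a number left out either.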

How the data were processed

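The authors sequenced poly(A) RNA, removed adaptors with Trimmomatic 0.32, aligned reads to GRCm38 with STAR 2.5.1b, counted exonic reads with featureCounts over GENCODE vM4 and analysed them with DESeq2. The deposited table holds a gene-level signal, which is whole numbers equal to read counts divided by 1 factor per library and then rounded by the authors. It covers 43278 symbols in 12 libraries, of which 18273 are 0 throughout and 25 have turned into dates. Factors estimated from gaps in the values were 0.7078 to 1.3097, giving the implied reads. Because the values are scaled, no count model was run.

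Values were tested as log2(value + 1) with limma 3.58.1 (R 4.3.3, eBayes with a trend) on genes that reached 10 in 3 or more of the fitted libraries, 6 libraries for a pairwise comparison and 12 for the interaction, with Benjamini-Hochberg adjustment over all genes tested. A gene was called at an adjusted p under 0.1. Every adjusted p is from limma. The script was tested on simulated data. There were 3 libraries per group, which the study counts as biological replicates and whose numbers the labels do not explain further. The p-values measure the spread between them, as moderated by eBayes over all genes.

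The 10 genes, the lists and the tests were chosen with earlier results of these data known. Named list members are those called or, where a list had more than 4, the 4 with the largest absolute log2 fold change, except 1 that is not reported here. For *Ccrn4l*, *Nr1d1* and *Dbp* the 5 genes with the highest correlation are named. The methods describe pooled cells divided among the groups, but sex-linked genes show that number 1 did not hold the same mix with and without LPS. Deviations from the group means correlated at 0.234 to 0.657 in all 18 pairs of the same replicate number and at −0.440 to 0.033 in 36 other pairs over 13482 genes, so fits with the number as a block were added. Between groups with and without LPS that block pairs the unmatched number 1 libraries. Gene positions and exon lengths are from GENCODE vM21 on GRCm38, and promoter windows from RefSeq on GRCm38.p6.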

Additional observations from a re-analysis of the deposited data

Results flagged for a closer look

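Among the 10 genes and the 93 listed ones, 3 had an oxLDL difference that was not the same with and without LPS, by the interaction of oxLDL and LPS with the replicate number nested in LPS state as a block (limma), a fit that called 1.09% of all genes. For *Ccrn4l* it was −0.81 on the log2 scale (adjusted p = 0.03764), the oxLDL difference being 0.16 without LPS and −0.65 with it. For the chemokine gene *Ccl2* it was −1.96 (adjusted p = 0.06207), with −2.50, −0.69 and −2.69 in numbers 1, 2 and 3. For *Tsc22d3* it was 0.59 (adjusted p = 0.07845), with 0.66, 0.49 and 0.61. Without the nested block each had an adjusted p of 0.9999, and with the replicate number as an ordinary block no gene was called. With 1 number in 1 LPS state left out, the nested fit gave *Ccrn4l* an adjusted p under 0.1 in 1 of 6 cases and called 0 to 20 list genes. The share of all genes called in those fits is not given here.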

How the results depend on the processing

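Over the alternatives 1187 log2 fold changes of the 10 genes were recomputed. None that was called without a block at the deposited scaling changed sign. *Clock* for LPS versus control, not called there at 0.05, was called lower at −0.44 with equal totals. Of all values, 1172 moved by less than 1 SD between replicates, and 15, all with libraries rescaled to the same total, moved further. The replicate block changed counts as follows. Between oxLDL and control it called 9 list genes in place of 0 (2 to 15 with a number left out, highest without number 3), and between oxLDL+LPS and LPS 1 of the 10 genes (0 to 1) and 20 list genes (0 to 28) in place of 0, while without a block leaving out a library or a number gave 0 to 1. In the interaction the nested block called 1 of the 10 genes (0 to 1) and 2 list genes (0 to 20, highest without number 2 with LPS). The share of all genes called in these blocked fits with libraries left out is not given here. The replicate block added *Cry1* in oxLDL-loaded PMφs and changed no other call of the 10 genes. Leaving out a library or a number gave 5 to 7 of the 10 genes and 47 to 63 list genes for LPS versus control, and 3 to 6 and 37 to 55 in oxLDL-loaded PMφs, where 3 of the 10 genes were left without number 2 or 3, or without oxLDL 2, oxLDL+LPS 2 or oxLDL+LPS 3, and 37 list genes without number 3. With equal totals, calls over all genes for LPS versus control numbered 9394 (2170 higher, 7224 lower), and 8691 (2031 and 6660) in oxLDL-loaded PMφs, against 8039 and 7030. *Dbp* with LPS (7 to 15) and *Nr1d1* (19 to 67) had few reads, so small differences in them could be missed. *Nr1d1* also spread more with LPS, with an SD of 21.13 in LPS and 22.07 in oxLDL+LPS libraries. Its SD was 7 in control and 2.082 in oxLDL libraries, and the part of depth was not tested. The cause of these changes was not tested. No total count of called genes, taken over both directions, among the 10 or the listed genes moved by over 1.5 times under the other pseudocounts, filters, variance model, threshold, shared spread or scalings.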

Other observations

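In oxLDL-loaded PMφs, 8 of 12 other core clock factors were called with LPS (2 higher, 6 lower, median −0.68). The share over all genes was 54.5% (28.2% higher, 26.3% lower, median −0.02). All 6 genes listed as repressed by REV-ERB proteins were called too (5 higher, 1 lower, median 4.94). Of these 6, *Il6* and *Cx3cr1* passed the filter on low values through 1 group alone. *Il1b* was 7630, 44508 and 21943 and *Il6* 261, 4786 and 2683 in oxLDL+LPS libraries 1, 2 and 3. The number of *Ccrn4l* reads per *Dbp* read, not scaled by length, was 2.139 to 4.056 in control, 3.389 to 6.597 in oxLDL, 46.5 to 121.1 in LPS and 28.13 to 40.62 in oxLDL+LPS PMφs. That of *Arntl* per *Nr1d2* read was 0.2722 to 0.3926, 0.2645 to 0.3554, 0.3995 to 0.4431 and 0.448 to 0.4786 in the same order.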
